A study of Homo sapiens with 20 samples.

Results

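ANKRD1 and 7 other mRNAs known as targets of the transcriptional coactivator YAP were followed through RNA granules and exosomes of the human embryonic kidney line HEK293. The 8 genes, ANKRD1, CCN1, CCN2, AMOTL1, AMOTL2, CRIM1, AXL and LATS2, were taken by symbol from 62266 named genes, and each symbol matched 1 gene. They were chosen by an earlier reading of these data, in which ANKRD1 ranked high in HD granules against control granules, so levels in that comparison are descriptions and carry no p. Exosomes are small vesicles released by cells, and RNA granules are membraneless RNA-protein bodies, prepared here as granule cores. The HD libraries were HD granules and HD exosomes, from HEK293 cells in which a Huntington's disease (HD) state had been induced, and the others were control granules and control exosomes, from control cells of the same line. The study describes 5 biological replicates in each of the 4 groups. The labels used here do not say which transgene or agent induced the HD state, or what control cells received.

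YAP and its relative TAZ carry no DNA-binding domain and act through TEAD transcription factors. The Hippo kinases, ending in LATS1 and LATS2, phosphorylate YAP and TAZ and hold them in the cytoplasm, and low cell density, a stiff substrate or actin tension release them. ANKRD1, CCN1 and CCN2 are among the genes most often used to read YAP activity in cultured epithelial lines. Several other targets act back on the pathway: AMOTL1 and AMOTL2 encode angiomotin-like proteins that bind YAP, and LATS2 encodes a kinase that inhibits it.

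Promoter sequences from RefSeq (build GRCh38.p14), 250 bases before to 50 bases after the start, were given for 6 of the 8 genes in 8 windows. The letters GGAATG, the core recognised by TEAD factors, or CATTCC on the other strand, occurred in 5 of these 8 windows, against 14.03% of 35116 windows of all genes. CCN2 held 3 matches, a number reached by 0.128% of all windows, and ANKRD1 held 2, a number reached by 1.37%. Both are shown because they are the genes with more than 1 match, with the matches in capitals, 5′ to 3′ on the minus strand, at chr10:90921038-90921337 for ANKRD1 and chr6:131951323-131951622 for CCN2.
ANKRD1: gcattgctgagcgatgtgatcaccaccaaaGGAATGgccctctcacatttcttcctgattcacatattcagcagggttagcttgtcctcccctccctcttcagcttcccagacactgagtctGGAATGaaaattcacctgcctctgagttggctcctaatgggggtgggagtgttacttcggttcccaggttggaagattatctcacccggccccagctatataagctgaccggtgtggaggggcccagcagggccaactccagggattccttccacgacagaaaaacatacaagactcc
CCN2: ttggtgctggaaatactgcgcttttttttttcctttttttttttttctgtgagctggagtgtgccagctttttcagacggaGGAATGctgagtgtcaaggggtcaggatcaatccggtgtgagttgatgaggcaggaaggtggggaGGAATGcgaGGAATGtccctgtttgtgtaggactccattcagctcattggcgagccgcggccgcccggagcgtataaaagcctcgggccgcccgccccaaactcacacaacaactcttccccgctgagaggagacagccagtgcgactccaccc
The ANKRD1 matches begin 220 and 128 bases before the start, and those of CCN2 169, 104 and 95 bases before it. LATS2 held 1 match, 10 bases into the transcript, 1 of 2 AMOTL2 windows held 1 at 69 bases before the start, and 1 of 2 AXL windows held 1 at 212 bases before it. The AMOTL1 window held none. A match is a run of letters and not a measured binding site.

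Reads on named genes, in mega-reads (M), numbered 17.7 to 23.9 M in HD granules and 11.4 to 24.5 M in control granules. In exosomes they numbered 1.33 to 7.41 M in 4 HD libraries and 5.30 to 9.04 M in control libraries. HD exosome 4 held 713 such reads and none on any of the 8 genes. This allows a level of up to 4208 CPM (3 counts), a limit without the TMM scaling of the levels below. HD exosome levels are therefore given over the other 4 libraries. HD exosome 2 had 86.6% of its reads on entries without a gene name. Of 10 markers of HEK293 cells, VIM stood at 328 CPM or more in the 19 libraries and LIN28B at 88.8 CPM or more, while LIN28A and NEFM stayed under 1 CPM and PAX2 did not pass 2.99 CPM. The summed HEK293 markers were 1607 CPM in HD granule 3, against 877 to 1029 CPM in the other HD granules, so that library stood apart. Exosome libraries had sums of 1600 to 1965 CPM in HD and 1607 to 1794.5 CPM in control, the range in which HD granule 3 lay. This does not hold for each marker, since CDH2 stood at 88.6 to 107 CPM in HD granules and at 33.5 to 40.8 CPM in HD exosomes. The summed fibroblast and endothelium markers of HD granule 3 were 52.2 CPM, against 8.55 to 13.9 CPM in the other HD granules. The cause was not tested. Markers of other cells were uneven in exosomes. Of 12 keratinocyte markers the sum was 37.5 to 1423 CPM in HD exosomes and 15.3 to 143 CPM in control exosomes, and in granules it stayed between 2.94 and 10.6 CPM, with KRT6B and LORICRIN at 0. HTT, the gene mutated in Huntington's disease, averaged 211 ± 64.5 CPM in HD granules, against 213 ± 45.7 CPM in control granules, and 229 ± 74.2 CPM in HD exosomes, against 195 ± 20.8 CPM in control exosomes (SD, n = 5, but 4 for HD exosomes), and total HTT reads do not show which allele is present.

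Levels below are read counts scaled to a common total of 1000000 reads on named genes with TMM factors over the 20 libraries (TMM-scaled CPM), and comparisons between genes use TPM, the abundance of transcripts corrected for length. Each level is a share of its own library. In these bulk preparations fewer granules or vesicles that carry an mRNA and less of that mRNA in each cannot be told apart. Fold changes are on the log2 scale, each with its own scaling, and a gene was called at a Benjamini-Hochberg adjusted p under 0.05 over all genes tested in edgeR's quasi-likelihood test.

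ANKRD1 (ENSG00000148677.7, chr10:90912096-90921087) encodes an ankyrin repeat protein of the nucleus and, in muscle, of the sarcomere, where it binds titin. It was the gene of the 8 with the widest spread of levels between groups. HD granules 1 to 5 held 73.8, 99.5, 115, 251 and 145 CPM, and control granules 1 to 5 held 18.9, 42.6, 39.8, 36.5 and 54.6 CPM. All HD granules lay above all control granules, and HD granule 4 was the highest of the 19 libraries. HD exosomes 1, 2, 3 and 5 held 29.0, 39.2, 27.9 and 43.7 CPM, and control exosomes 1 to 5 held 10.4, 22.1, 24.3, 23.5 and 23.6 CPM. All 4 HD exosomes lay above all control exosomes, and control exosome 1 was lowest. In order, the means were 137 ± 68.8 CPM in HD granules, 38.5 ± 12.9 CPM in control granules, 34.9 ± 7.71 CPM in the 4 HD exosomes and 20.8 ± 5.83 CPM in control exosomes (SD, n = 5, but 4 for HD exosomes). Control granules and HD exosomes overlapped, as did control granules and control exosomes.

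**Figure D1:**
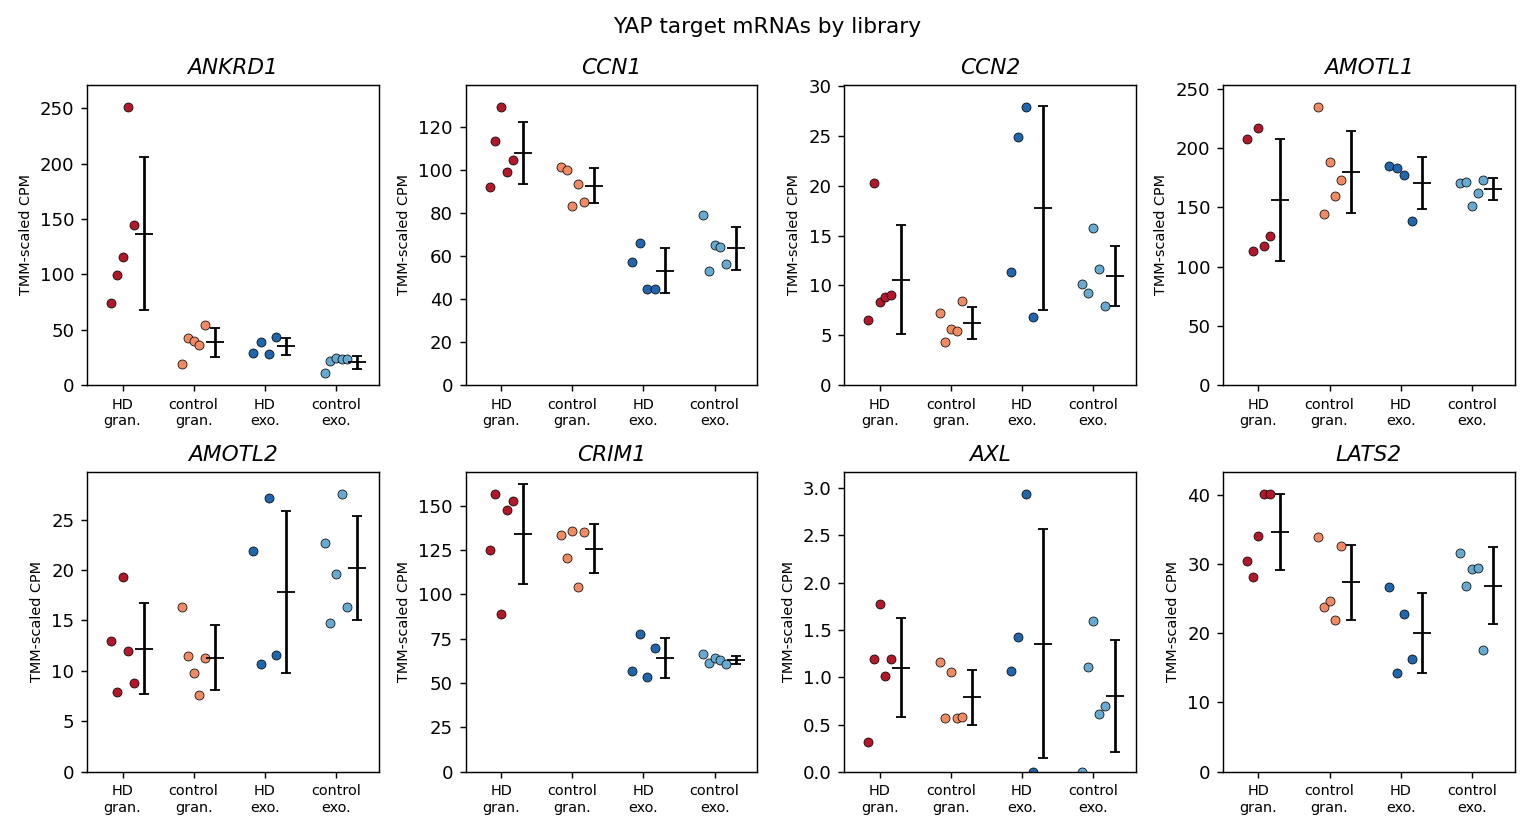
TMM-scaled CPM of the 8 genes in each library with at least 1000000 reads on named genes, with the mean and SD of each group as a bar beside the points. The y axes start at 0 and differ between genes; HD granules hold 73.8 to 251 CPM of ANKRD1, against 18.9 to 54.6 CPM in control granules, while AMOTL1 and CRIM1 overlap between HD and control in both compartments.

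In HD granules against control granules, ANKRD1 differed by 1.81 ± 0.36 log2 units (SE, 95% interval 1.01 to 2.61), or 3.50-fold. This is the comparison that chose it, and edgeR called none of the 16750 genes there in either direction (0% higher, 0% lower), with 116 higher and 99 lower at an unadjusted p under 0.05. DESeq2 called 4 genes higher and 0 lower. For ANKRD1 no call here is a test, since these values chose it. Every HD library lay above every control library for ANKRD1, and since these values chose it, this separation is no test either. None of the other 7 genes was so separated, against 0.185% of genes tested, and no member lay wholly below, against 0.167%. On the TPM scale the separation of ANKRD1 was the same, at 8.95 to 42.7 TPM in HD granules and 3.02 to 8.73 TPM in control granules. The 12 keratinocyte markers summed to 7.10 to 10.6 CPM in HD granules and 2.94 to 6.20 CPM in control granules, and the 12 blood and plasma markers to 7.43 to 121 CPM and 14.1 to 43.8 CPM, with HBD, PF4 and PPBP at 0 in both. HD granule 4 was highest in ANKRD1 and in the blood and plasma sum. HD granule 2 was next in that sum, at 115 CPM, with 99.5 CPM of ANKRD1. HD granule 3 was lowest in it, at 7.43 CPM, with 115 CPM of ANKRD1. The part of these markers in the ANKRD1 difference was not tested.

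When the earlier naming rule was repeated, ANKRD1 was picked in HD granules against control granules but not in HD exosomes against control exosomes. Earlier results of these data were known at the choice, so the exosome values are not shown to be independent of it. In HD exosomes against control exosomes the ANKRD1 fold change was 0.76 ± 0.27 (95% interval 0.17 to 1.34). The edgeR adjusted p was 0.598 and the unadjusted p was 0.0140, so the gene was not called. Of 12936 genes none was called higher (0%) or lower (0%), with 408 higher and 572 lower at an unadjusted p under 0.05, and DESeq2 called none. Without HD exosome 1 there were 74 higher and 423 lower, and with no count filter 141 and 134, with ANKRD1 called in neither (adjusted p = 0.0915 and 0.255). ANKRD1 was 1 of 7 members tested whose HD libraries all lay above the control libraries, against 0.788% of genes tested, and none lay wholly below, against 0.912%. On the TPM scale the groups overlapped, at 0.640 to 9.31 TPM in HD exosomes and 1.69 to 4.24 TPM in control exosomes, HD exosome 2 being the lowest. The blood and plasma markers summed to 106 to 2443 CPM in HD exosomes and 90.5 to 313 CPM in control exosomes, and those of fibroblasts and endothelium to 39.0 to 139 CPM and 24.6 to 53.3 CPM. Their part was not tested.

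ANKRD1 levels were higher on average in granules than in exosomes in both states. The granule libraries had served to choose the gene, so these differences are descriptions. In HD-induced cells the fold change was 2.01 ± 0.37 (95% interval 1.22 to 2.79), which is 4.02-fold. In control cells it was 0.80 ± 0.28 (0.19 to 1.42), or 1.74-fold. Without HD exosomes 2 and 4 and HD granule 3, the libraries that stood apart, the ANKRD1 fold changes were 2.04 in granules against exosomes of HD-induced cells, 1.88 in HD granules against control granules and 0.68 in HD exosomes against control exosomes. The HD effect in granules exceeded that in exosomes by 1.09 ± 0.46, a description, since it contains the comparison that chose the gene. That interaction had 0.00619% of 16154 genes called higher and 0.0124% called lower, and none of the 8.

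CCN1 and CCN2 encode secreted matricellular proteins that bind integrins. CCN1 (ENSG00000142871.18, chr1:85580761-85583950) held 92.0, 114, 129, 99.0 and 105 CPM in HD granules 1 to 5, against 57.1, 66.2, 44.8 and 44.7 CPM in HD exosomes 1, 2, 3 and 5. It held 101, 99.9, 83.5, 93.4 and 85.3 CPM in control granules and 79.2, 53.1, 65.2, 64.1 and 56.5 CPM in control exosomes. In both states every granule library lay above every exosome library. CCN1 rose by 1.06 ± 0.26 in HD granules over HD exosomes (adjusted p = 0.0148) and by 0.45 ± 0.13 in control granules over control exosomes (adjusted p = 0.00893).

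CCN2 (ENSG00000118523.6, chr6:131948176-131951372) ran the other way. It held 6.52, 20.3, 8.31, 8.87 and 9.03 CPM in HD granules 1 to 5, against 11.4, 24.9, 27.9 and 6.85 CPM in HD exosomes 1, 2, 3 and 5, and these groups overlapped (log2 fold change -0.68 ± 0.47, adjusted p = 0.330). It held 7.23, 4.35, 5.60, 5.46 and 8.43 CPM in control granules and 10.2, 9.20, 15.8, 11.6 and 7.97 CPM in control exosomes. There it fell by 0.91 on the log2 scale, ± 0.25 (adjusted p = 0.00663), with control granule 5 above control exosome 5. In the fit over all 4 groups the CCN2 call was lost (adjusted p = 0.0697). Within a library the TPM ratio of CCN1 to CCN2 had a median of 10.4 in HD granules and 14.2 in control granules, against 3.33 in HD exosomes and 4.44 in control exosomes. The lowest control granule ratio, 9.28, lay above the highest control exosome ratio, 5.73.

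The CCN1 reads were not of the same transcripts in both compartments. The coding transcript CCN1-201 and the retained-intron transcripts CCN1-203 and CCN1-204 took most of them, and CCN1-203 lay mostly in granules. It stood at 50.9, 77.9, 14.1, 72.8 and 77.5 CPM in HD granules 1 to 5 and at 1.34, 3.99, 0 and 0 CPM in HD exosomes 1, 2, 3 and 5. In control granules it stood at 48.8 to 56.6 CPM, and in control exosomes at 0.352 to 0.766 CPM. The coding CCN1-201 held 18.1, 7.63, 94.4, 5.58 and 4.09 CPM in HD granules, against 36.1, 39.2, 23.5 and 18.5 CPM in HD exosomes. It held 9.30 to 30.1 CPM in control granules and 20.7 to 47.01 CPM in control exosomes. With HD granule 3 set aside, the coding transcript had lower levels in all HD granules than in any HD exosome. In those libraries the excess of CCN1 reads in granules lay mainly on CCN1-203. The other main retained-intron transcript, CCN1-204, held 19.5, 27.5, 18.6 and 20.9 CPM in HD granules 1, 2, 4 and 5. It held 19.2, 23.1, 21.3 and 26.2 CPM in HD exosomes 1, 2, 3 and 5. In control cells CCN1-204 averaged 18.8 CPM in granules and 25.6 CPM in exosomes. The deposited estimates divide reads among transcripts that share sequence, and unspliced precursor RNA and CCN1-203 cannot be told apart.

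**Figure D2:**
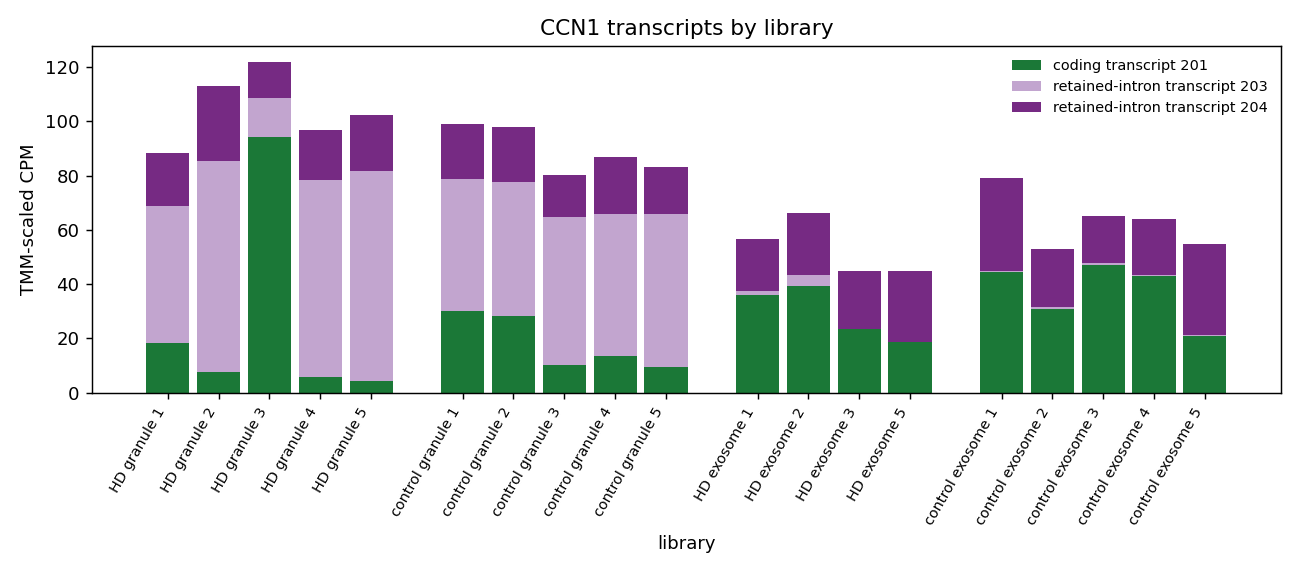
TMM-scaled CPM of the 3 main CCN1 transcripts, stacked, in each of the 19 libraries with at least 1000000 reads on named genes. Retained-intron transcript 203 fills 48.8 to 77.9 CPM of each granule bar except HD granule 3, at 14.1 CPM, and at most 3.99 CPM of each exosome bar.

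In HD-induced cells retained-intron transcripts took 77.9% ± 29.9 of CCN1 reads in granules and 45.9% ± 9.59 in exosomes (SD, n = 5 and 4; exact 2-sided permutation test, p = 0.0952, adjusted p = 0.324 over 17 share tests of 5 genes), with HD granule 3 at 25.6%. Without HD granule 3, the only HD granule that overlapped the exosomes, the difference was 45.1 percentage points, against 32.0 with it. The exact p was then 0.0286 before adjustment, the smallest that 4 libraries in each group allow. For control cells the share was 80.9% ± 9.09 in granules and 42.1% ± 13.6 in exosomes (n = 5 each, exact p = 0.00794, adjusted p = 0.0450). That exact p is the smallest that 5 libraries in each group allow. No control granule overlapped a control exosome, with 70.3% the lowest of the granules and 63.3% the highest of the exosomes. HD granules and control granules did not differ detectably in this share (exact p = 0.937), nor did HD and control exosomes (exact p = 0.619). These tests were chosen after the shares had been seen. Over all genes the granules also carried more such reads: retained-intron transcripts took 6.01% to 9.41% of named reads in HD granules and 7.28% to 8.66% in control granules, against 2.90% to 4.52% in HD exosomes and 3.18% to 3.55% in control exosomes. The share was higher in granules without overlap for 40.8% of 3353 genes with such a transcript in HD-induced cells and for 45.7% of 6049 in control cells. A granule excess as large as that of CCN1 was seen in 5.46% of them in HD-induced cells and in 3.49% in control cells.

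CRIM1 and AXL encode membrane proteins. CRIM1 (ENSG00000150938.10, chr2:36355778-36551135), a cysteine-rich protein that binds bone morphogenetic proteins, had the highest TPM of the 8 in the median of each group except HD exosomes, where it was second to CCN1. HD granules 1 to 5 held 125, 157, 88.8, 148 and 152 CPM, and HD exosomes 1, 2, 3 and 5 held 56.6, 77.6, 53.6 and 69.6 CPM. Control granules held 134, 121, 135, 104 and 135 CPM, and control exosomes 66.5, 61.2, 63.9, 63.3 and 60.8 CPM. Granules lay wholly above exosomes in both states. CRIM1 rose by 1.11 ± 0.28 in HD granules over HD exosomes (adjusted p = 0.0178) and by 0.90 ± 0.10 in control granules over control exosomes (adjusted p = 1.2e-05). The first call was lost when HD granule 2, 4 or 5 or HD exosome 3 was left out, with adjusted p of 0.0501 to 0.0578. AXL (ENSG00000167601.12, chr19:41219223-41261766), a receptor tyrosine kinase for GAS6, was near the limit of detection. It averaged 1.10 ± 0.523 CPM in HD granules against 0.786 ± 0.295 CPM in control granules, and 1.36 ± 1.22 CPM in HD exosomes against 0.801 ± 0.594 CPM in control exosomes (SD), on 193 reads in all 20 libraries. No difference was detectable at this depth.

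AMOTL1, AMOTL2 and LATS2 belong to the feedback arm of the pathway. AMOTL1 (ENSG00000166025.18, chr11:94706460-94876748) was even across groups, at 156 ± 51.5 CPM in HD granules, 180 ± 34.6 CPM in control granules, 171 ± 22.0 CPM in HD exosomes and 166 ± 9.37 CPM in control exosomes (SD). All 4 groups overlapped, and HD granules 2, 4 and 5 held 114 to 126 CPM while HD granules 1 and 3 held 208 and 217 CPM. Its fold change in granules over exosomes was -0.05 ± 0.32 in HD-induced cells (95% interval -0.73 to 0.62) and 0.03 ± 0.13 in control cells (-0.25 to 0.31), and in HD-induced cells its sign depended on the scaling.

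AMOTL2 (ENSG00000114019.15, chr3:134355345-134375417) held 12.9, 7.90, 19.3, 12.0 and 8.79 CPM in HD granules 1 to 5 and 21.9, 10.7, 27.2 and 11.5 CPM in HD exosomes 1, 2, 3 and 5, which overlapped (-0.52 ± 0.39, adjusted p = 0.368). In control granules it held 16.3, 11.5, 9.80, 7.65 and 11.3 CPM, and in control exosomes 22.7, 14.7, 19.7, 27.5 and 16.3 CPM. Control granule 1 alone reached into the control exosome range. AMOTL2 fell by 0.93 on the log2 scale in control granules, ± 0.23 (adjusted p = 0.00439). Retained-intron transcripts took 6.92% ± 2.70 of AMOTL2 reads in control granules and 0% in control exosomes (exact p = 0.00794, adjusted p = 0.0450 in the same family). The counts behind the control exosome value were 94.0 to 185 AMOTL2 reads per library. Over all genes with such a transcript, 45.7% of 6049 had a higher share in control granules without overlap. In HD-induced cells the AMOTL2 share was 5.23% ± 6.74 in granules and 0% in exosomes (exact p = 0.0794, adjusted p = 0.324).

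LATS2 (ENSG00000150457.9, chr13:20973036-21061586) held 30.5, 28.1, 34.1, 40.1 and 40.1 CPM in HD granules 1 to 5 and 26.7, 14.2, 22.8 and 16.2 CPM in HD exosomes 1, 2, 3 and 5. These groups did not overlap, yet the gene was not called (0.81 ± 0.30, 95% interval 0.17 to 1.45, adjusted p = 0.0737). It was called with size factors of the relative log expression kind (RLE, adjusted p = 0.0444), in the fit over all 4 groups (0.0136) and without HD granule 3 (0.0429), but not without all 3 libraries that stood apart (0.126). In control cells it averaged 27.4 ± 5.44 CPM in granules and 26.9 ± 5.50 CPM in exosomes (-0.07 ± 0.19, adjusted p = 0.767, and 0.05 with RLE). The difference between the HD effects in granules and in exosomes was 0.76 ± 0.32, given as a description.

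Of the 7 genes other than ANKRD1, 2 were called higher in HD granules than in HD exosomes, CCN1 and CRIM1, against 11.9% of 14431 genes tested, and 0 lower, against 5.77%. Without the 3 libraries that stood apart the counts were also 2 and 0, against 18.6% and 16.4% of all genes. Leaving out 1 library at a time, 1 to 3 of them were called higher, against 791 genes in all without HD granule 2 (5.74%) and 2942 without HD granule 3 (21.3%). In control cells 2 of the 6 others tested were called higher in granules, again CCN1 and CRIM1, against 30% of 14777 genes, and 2 lower, CCN2 and AMOTL2, against 32.5%. Granule libraries lay wholly above exosome libraries for 3 of these 7 genes in HD-induced cells, against 10.4% of genes tested, and for 2 of 6 in control cells, against 26.2%. None lay wholly below, against 7.13% in HD-induced cells and 23.2% in control cells. The median log2 fold change of these genes was -0.05 in HD-induced cells and -0.02 in control cells, beside 0.17 and -0.02 over all genes tested. With RLE the median of all genes in HD-induced cells was 0.32 and the calls became 2459 higher and 577 lower, against 1720 and 833 with TMM. In the main fits AXL passed the count filter only where HD granules or all 20 libraries entered.

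Between HD and control libraries the fold changes of the other genes were below those of ANKRD1 in both compartments. In granules, the comparison used in the choice, CCN2 differed by 0.76 ± 0.33 (95% interval 0.03 to 1.48), AXL by 0.48 ± 0.44, LATS2 by 0.32 ± 0.18, CCN1 by 0.20 ± 0.14, AMOTL2 by 0.09 ± 0.29, CRIM1 by 0.07 ± 0.17 and AMOTL1 by -0.22 ± 0.23. For each of these 7 the HD and control granules overlapped. Without HD granule 2, at 20.3 CPM, the CCN2 difference was the lowest of all those computed, 0.38. In exosomes none of the 7 tested was called, and besides ANKRD1 the fold changes were 0.69 ± 0.40 for CCN2, -0.39 ± 0.26 for LATS2, -0.24 ± 0.20 for CCN1, -0.14 ± 0.32 for AMOTL2, 0.05 ± 0.20 for AMOTL1 and 0.04 ± 0.18 for CRIM1, with adjusted p of 0.598 or more. The CCN2 interval, -0.16 to 1.55, includes a difference as large as that of ANKRD1.

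**Figure D3:**
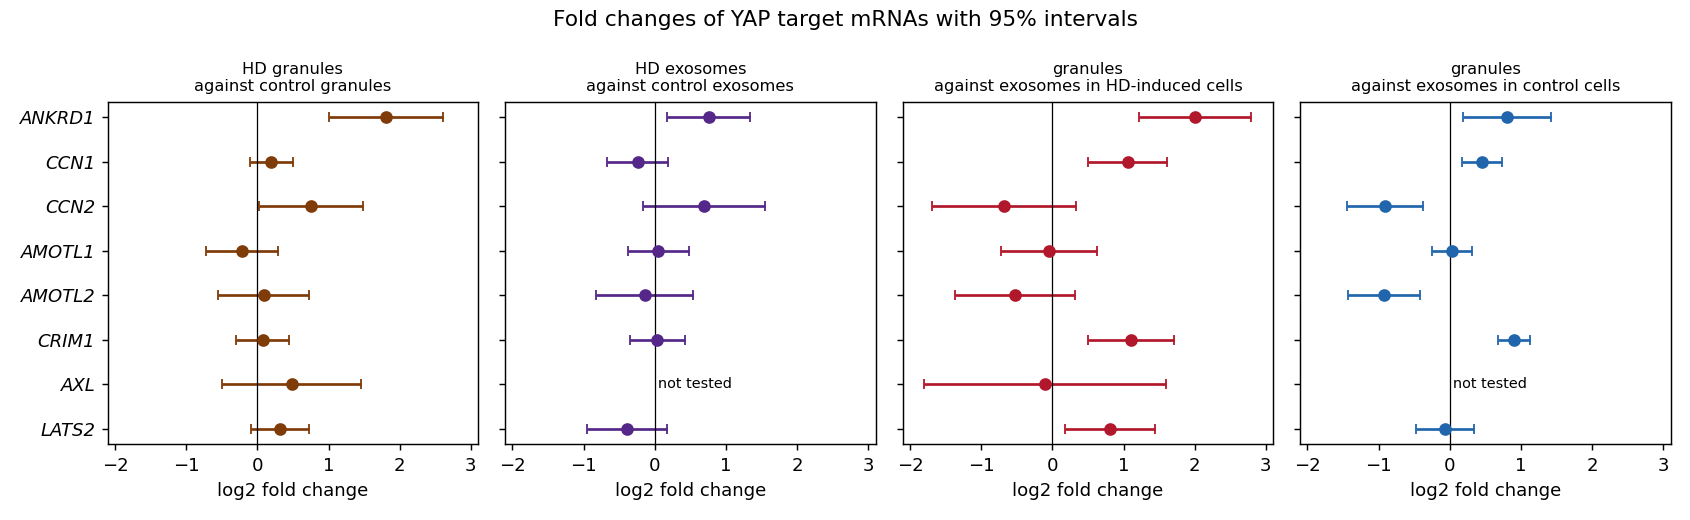
Log2 fold changes with 95% intervals from edgeR for the 8 genes in 4 comparisons, positive where the group named first is higher. ANKRD1 lies at 1.81 in HD granules against control granules and at 2.01 in granules against exosomes of HD-induced cells; AXL was not tested in 2 of the comparisons.

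The order of ANKRD1 among the 8 genes is given as a description, since in granules it rests on the comparison that chose the gene. Within a library its TPM exceeded that of CCN1 in 5 of 5 HD granules, with ratios of 1.02 to 3.15, and in 0 of 5 control granules, at 0.234 to 0.821. In exosomes it did so in 1 of 4 HD libraries, at 0.531 to 1.19, and in 0 of 5 control libraries, at 0.196 to 0.606. Median TPM was 14.9 for ANKRD1 beside 18.9 for CRIM1 in HD granules, and 5.04 beside 17.2 in control granules. In HD exosomes the medians were 6.09 TPM for ANKRD1 beside 7.26 TPM for CRIM1, and in control exosomes 4.14 TPM beside 11.6 TPM. HD exosome 2, where most reads lay on unnamed entries, had the lowest CRIM1 value, 2.44 TPM. On the CPM scale CRIM1 averaged 64.4 in HD exosomes and 63.1 in control exosomes.

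The genes whose levels were most like those of ANKRD1 were neither among the 8 nor on the list of other YAP targets. Over the 10 granule libraries the highest Pearson correlations of log2 CPM among 11182 protein-coding genes were those of VPS26C (0.94), MSANTD3 (0.94), DUSP5 (0.91), RAD23B (0.91) and ARL2BP (0.91). Among the other members LATS2 had the highest value, at 0.60 and rank 739, then CCN2 at 0.49, CCN1 at 0.39 and CRIM1 at 0.21, with AMOTL2 at -0.06 and AMOTL1 at -0.60. Over 19 libraries of both compartments the highest among 11259 genes were FNBP4 (0.86), CIR1 (0.86), SRRM1 (0.85), DNAJC2 (0.84) and KTN1 (0.84), and CRIM1 reached 0.65. These are descriptions over libraries that share a compartment, a state and a scaling.

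The rest of the pathway was read from 5 lists. None of their genes was called in HD granules against control granules or in HD exosomes against control exosomes, where edgeR called no gene at all. In the interaction none of them was called either, against 0.00619% of 16154 genes called higher and 0.0124% called lower. In granules against exosomes many were called. Among 13 other YAP target genes tested in HD-induced cells, ASAP1 (0.93 ± 0.28) rose and MYOF (-1.23 ± 0.40) fell, and the median was 0.14, against 0.17 over all genes, of which 11.9% were called higher and 5.77% lower. In control cells 3 of 13 were called higher in granules, DOCK5 (0.74 ± 0.13) and ASAP1 (0.63 ± 0.13), regulators of small GTPases, and F3 (0.90 ± 0.18), tissue factor. Another 3 were called lower, among them MYOF (-1.21 ± 0.24), a membrane repair protein, and the list median was 0.35, against -0.02 over all genes, of which 30% were called higher and 32.5% lower. In control cells neither share of this list was above that of all genes.

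Most messages of the YAP and TEAD proteins and their cofactors fell in granules of control cells. In HD-induced cells TEAD4 (-1.45 ± 0.48, adjusted p = 0.0485) was the 1 gene of 11 called, against 5.77% of all genes called lower, and the list median was -0.46. In control cells 8 of 11 fell, against 32.5% of all genes, and YAP1 (0.40 ± 0.12, adjusted p = 0.0104) rose, with a median of -0.71. The genes that fell included TEAD4 (-2.25 ± 0.19), CDK9 (-1.59 ± 0.25), a kinase of transcript elongation, WWTR1 (-0.89 ± 0.14), which encodes TAZ, and VGLL3 (-0.66 ± 0.14), a TEAD cofactor. Of 28 Hippo kinases and upstream regulators tested in HD-induced cells, 2 rose in granules, FAT4 (1.57 ± 0.29), a giant cadherin, and FGFR1OP2 (1.14 ± 0.37), of the STRIPAK complex, and 0 fell, against 11.9% and 5.77% of all genes, with a median of 0.09. In control cells 9 of 28 rose and 8 fell, close to the 30% and 32.5% of all genes, with a median of -0.12. FAT4 rose by 1.49 ± 0.13 there, the kinase gene TAOK1 by 1.02 ± 0.11 and FGFR1OP2 by 1.31 ± 0.20, and the kinase gene MAP4K4 (-0.77 ± 0.11) fell.

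Relatives and partners of the 8 proteins were mostly higher in granules. In HD-induced cells 6 of 11 tested rose and 1 fell, against 11.9% and 5.77% of all genes, with a median of 1.20. In control cells 7 of 12 rose and 2 fell, against 30% and 32.5% of all genes, with a median of 0.96. TTN, which encodes the titin that ANKRD1 binds, rose in granules by 1.91 ± 0.37 in HD-induced cells and by 2.41 ± 0.17 in control cells. ITGAV, an integrin subunit that serves as a receptor for CCN proteins, rose by 2.16 ± 0.34 in HD-induced cells and by 1.79 ± 0.13 in control cells. ITGB1, another integrin subunit, rose by 1.85 ± 0.30 and CCN3, a relative of CCN1 and CCN2, by 1.46 ± 0.29 in HD-induced cells. LRP6, a Wnt coreceptor, rose by 1.23 ± 0.28 in HD-induced cells and by 1.18 ± 0.10 in control cells. AMOT, the relative of AMOTL1 and AMOTL2, fell in HD-induced cells (-1.32 ± 0.28, adjusted p = 0.00907) and in control cells (-1.32 ± 0.14, adjusted p = 6.3e-06). SRF and MRTF targets, which like YAP targets respond to actin, had medians of -0.59 in HD-induced cells and -1.13 in control cells. In HD-induced cells EGR1 (1.81 ± 0.44), an immediate early gene, rose and CNN2 (-1.64 ± 0.51), a calponin, fell among 18 tested. In control cells 13 of 19 fell and 2 rose, against 32.5% and 30% of all genes. Among those that fell were MYL9 (-7.14 ± 0.45), ACTB (-3.73 ± 0.27), ACTG1 (-2.94 ± 0.23) and CNN2 (-2.69 ± 0.27), genes of the actin cytoskeleton.

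**Figure D4:**
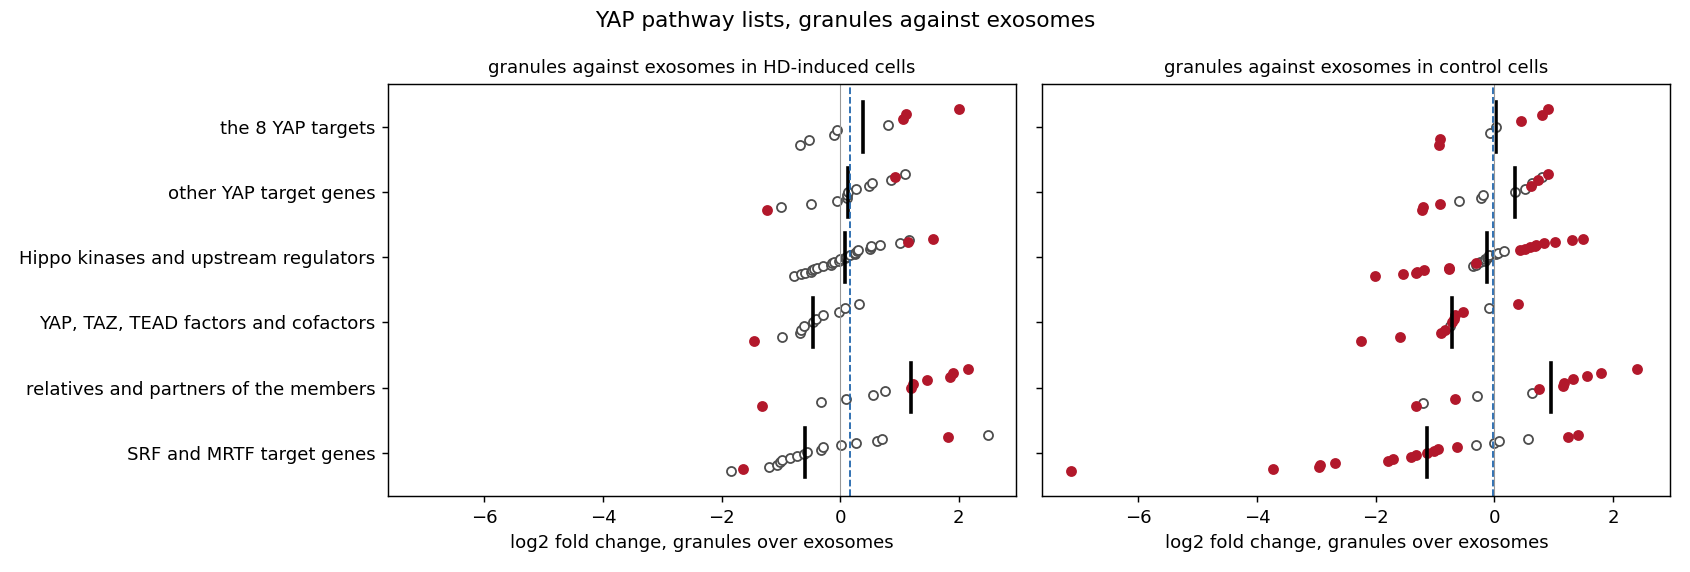
Log2 fold changes of granules over exosomes for the 8 genes and the 5 lists, in HD-induced cells at left and control cells at right, filled where called at an adjusted p under 0.05 (for ANKRD1 a description). Thick bars are list medians and the dashed line is the median of all genes tested; relatives and partners lie mostly to the right, at medians of 1.20 and 0.96, and SRF and MRTF targets to the left in control cells, at -1.13.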

How the data were processed

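Per the labels, total RNA of exosomes and granule cores was isolated with a mirVana kit and sequenced as stranded libraries in read pairs of 100 bases. The authors deposited, per library, an expected count and a TPM value for each transcript. Per the submitters' processing notes, Trimmomatic, cutadapt, FastQC and Salmon were used with build GRCh38.p14, with no versions named. Expected counts were summed per gene over 251955 named transcripts and rounded, and reads on 669597 unnamed entries were left out. Genes kept by filterByExpr were scaled by TMM and tested in edgeR 4.0.16 (R 4.3.3; robust quasi-likelihood F test), with each pair of groups fitted alone and the interaction over all 20 libraries. HD exosome 4 stayed in these fits. On simulated data for granules against exosomes, 83% of 4-fold and 10% of 2-fold changes were called in HD-induced cells, with 9.71% of calls false, and 94% and 13% in control cells, with 1.83% false. For HD against control exosomes 91% and 16% were called, with 11.6% false. For the interaction 44% and 1% were called, with 0% false, so a gene uncalled there is not shown to be unchanged. The simulated data had 200 changed genes and the same relative spread between libraries for every gene. These rates therefore need not hold for the real data. DESeq2 1.42.0 was an alternative. Transcript shares were compared by exact permutation tests in scipy 1.17.1. All 8 genes are named, with up to 4 called genes of each list and comparison with the smallest p. The 8 genes and the lists were chosen with earlier results of these data known. Intervals and limits cover counting error or the spread between libraries only.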

Additional observations from a re-analysis of the deposited data

Results flagged for a closer look

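Among 32 combinations of gene and group, 3 held a library whose gap to its nearest neighbour exceeded the critical share of the group's range, and chance marks about 1 in 20. CCN2 stood at 20.3 CPM in HD granule 2, against 6.52 to 9.03 CPM in the other HD granules. ANKRD1 stood at 10.4 CPM in control exosome 1, against 22.1 to 24.3 CPM in the other control exosomes. AMOTL1 stood at 138 CPM in HD exosome 5, against 177 to 185 CPM in the other 3 HD exosomes. HD exosome 5 also had the highest sums of keratinocyte (1423 CPM) and blood and plasma markers (2443 CPM), and their part was not tested.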

How the results depend on the processing

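Counts of called genes among the 8 changed by more than 1.5 times in 2 settings. DESeq2 called 1 gene higher in HD granules against control granules, where edgeR called 0, but this was ANKRD1, which those values chose, so the call is no test, and the fit over all 4 groups called 1 gene lower in control granules against control exosomes in place of 2. The cause was not tested. Leaving out 1 library at a time, 2 to 4 genes with ANKRD1, or 1 to 3 without it, were called higher in granules of HD-induced cells, and 3 or 2 in control cells. The ANKRD1 log2 fold changes in granules against exosomes, which are descriptions, were 1.65 to 2.14 in HD-induced cells and 0.62 to 0.98 in control cells.

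The main fits did not pair libraries by replicate number. Same-numbered correlations ran from -0.29 to 0.62, and they do not settle whether the numbers mark pairs. With the number as a replicate block, ANKRD1 differed by 0.87 in HD exosomes against control exosomes, still uncalled (adjusted p = 0.0623), the calls over all genes there became 45 higher and 251 lower, and 2 of the genes other than ANKRD1 were called higher in granules in each state. At most 2 of 5 numbers correlated best with themselves in a comparison. Number 5 did so in each comparison, at 0.62, 0.34, 0.35 and 0.38. Number 1 did so in all but HD granules against control granules.

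Small uncalled log2 fold changes reversed sign. In HD exosomes against control exosomes, AMOTL1 was -0.0189 with RLE, -0.0692 with no count filter, -0.0157 with DESeq2 and -0.0015 in the fit over all 4 groups, and CRIM1 was -0.0487, -0.0846 and -0.0534 in the first 3 of these. In granules against exosomes, AMOTL1 was 0.0871 with RLE and 0.0846 with DESeq2 in HD-induced cells, and LATS2 was 0.0497 with RLE, 0.0611 with no count filter, 0.0488 with DESeq2 and 0.0243 in the fit over all 4 groups in control cells. Without HD exosomes 2 and 4 and HD granule 3, AMOTL2 was -0.12 in HD granules against control granules, 0.0130 in HD exosomes against control exosomes and -0.1077 in the interaction, and CRIM1 was -0.0787 in HD exosomes against control exosomes.

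Leaving out 1 library at a time, values that crossed 0 were those of AMOTL2 in HD granules against control granules (-0.12 to 0.256) and, in HD exosomes against control exosomes, AMOTL1 (-0.0070 to 0.151), AMOTL2 (-0.424 to 0.0325) and CRIM1 (-0.0701 to 0.105). In granules against exosomes they were AMOTL1 (-0.231 to 0.0455) and AXL (-0.590 to 0.471) in HD-induced cells and AMOTL1 (-0.0734 to 0.233) and LATS2 (-0.198 to 0.120) in control cells. In the interaction they were CCN2 (-0.255 to 0.437) and AXL (-0.591 to 0.478).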
